A study of Mus musculus with 8 samples.

Results

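The genes described here encode the CD3 and zeta chains that signal for the T cell receptor, the CD4 and CD8 coreceptors and the receptor-associated adaptor TRIM. They are Cd3e, Cd3d, Cd3g, Cd247, Cd4, Cd8a, Cd8b1 and Trat1, a set of 8 genes chosen by name out of 53801 Ensembl gene IDs, and each of them had an ID in all 8 count tables. Mouse spleen lymphocytes of the strain B6, sorted magnetically as resting T cells or resting B cells and cultured for 2 hours, were measured by paired-end RNA-seq and by single-end ribosome profiling, which counts the mRNA fragments (footprints) that ribosomes shield from nuclease. T cell footprints came as libraries 1 and 2, T cell RNA-seq as libraries 1 and 4, and B cell footprints and B cell RNA-seq each as libraries 1 and 3. All footprint samples, T and B alike, received cycloheximide, which stalls elongating ribosomes, at 100 µg/ml for 15 minutes. The labels do not say whether libraries of a group came from separate animals, so p-values measure only the spread between these libraries, which may be technical.

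The T cell receptor itself has no signalling tail of its own. It assembles with CD3 epsilon-delta and epsilon-gamma pairs and a zeta homodimer, whose cytoplasmic tails carry the tyrosine motifs (ITAMs) that the kinase Lck phosphorylates and that recruit ZAP-70. CD4, a single chain, and CD8, usually an alpha-beta dimer on T cells, bind MHC class II and class I and bring Lck to the receptor, and mature splenic T cells mostly carry one or the other. In the mouse, some dendritic cells also carry CD4 or CD8 alpha, and natural killer cells use the zeta chain.

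Library totals were 136433 to 627833 counts in footprints and 8945905 to 10050986 in RNA-seq. Levels are in CPM, the library-scaled count (TMM, within an assay). A single count was worth 1.45 to 7.25 CPM in footprints and 0.101 to 0.112 CPM in RNA-seq. The sorted label was checked on 10 B cell markers, which summed to 83.2 and 193 CPM in T cell RNA-seq and 11600 and 11900 CPM in B cell RNA-seq. In footprints they summed to 210 and 667 CPM in T cell libraries 1 and 2, against 17100 and 10600 CPM in B cell libraries 1 and 3. All 10 were lower in T cells in both assays (edgeR quasi-likelihood test, adjusted p below 0.05). The 8 genes summed to 3190 and 3460 CPM in T cell RNA-seq libraries 1 and 4, against 27.4 and 341 CPM in B cell RNA-seq libraries 1 and 3. B cell library 3 thus held far more of these transcripts than library 1, and every RNA-seq result below touches on that gap. Exon lengths were not used here, so levels are not ranked between genes.

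Cd3g, Cd3d and Cd3e lie side by side on chromosome 9. In GRCm38.p6 they span 44969572 to 44980431, 44981769 to 44987052 and 44998735 to 45009663, with 1337 bases between Cd3g and Cd3d. Cd8b1 (71322788 to 71337492) and Cd8a (71373427 to 71379171) are neighbours on chromosome 6, which also holds Cd4 (124864693 to 124888247). Cd247 (165779952 to 165871153) is on chromosome 1 and Trat1 (48730774 to 48810547) on chromosome 16. Cd247 overlaps 3 annotated genes, among them the protein-coding Pou2f1, and Trat1 overlaps 1 pseudogene, whereas the other 6 overlap none. Whether strand was used in counting is not stated, so counts of overlapping genes cannot be assigned with certainty.

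Promoter windows of 300 bases were found in RefSeq (GRCm38.p6) for 6 of the 8 genes. Those of the 3 neighbouring CD3 genes are shown because their levels are compared with each other in both assays. Each is written 5′ to 3′ on the strand of its gene, and capitals mark the core AGGAAG of ETS factors or its reverse complement CTTCCT. The windows are chr9:44980382-44980681 on the minus strand for Cd3g, chr9:44981536-44981835 on the plus strand for Cd3d and chr9:45009562-45009861 on the minus strand for Cd3e.
Cd3g: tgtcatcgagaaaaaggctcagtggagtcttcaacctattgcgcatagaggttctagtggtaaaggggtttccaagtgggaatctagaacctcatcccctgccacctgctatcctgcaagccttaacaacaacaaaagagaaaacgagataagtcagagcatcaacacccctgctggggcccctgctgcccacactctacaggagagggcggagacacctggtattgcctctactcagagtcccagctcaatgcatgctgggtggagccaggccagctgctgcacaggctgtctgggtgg
Cd3d: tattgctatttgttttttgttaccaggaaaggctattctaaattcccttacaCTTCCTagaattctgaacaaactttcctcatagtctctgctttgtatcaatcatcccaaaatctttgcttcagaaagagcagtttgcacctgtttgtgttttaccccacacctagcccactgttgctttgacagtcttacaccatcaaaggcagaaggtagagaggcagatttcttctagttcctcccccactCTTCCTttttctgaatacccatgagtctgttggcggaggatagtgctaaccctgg
Cd3e: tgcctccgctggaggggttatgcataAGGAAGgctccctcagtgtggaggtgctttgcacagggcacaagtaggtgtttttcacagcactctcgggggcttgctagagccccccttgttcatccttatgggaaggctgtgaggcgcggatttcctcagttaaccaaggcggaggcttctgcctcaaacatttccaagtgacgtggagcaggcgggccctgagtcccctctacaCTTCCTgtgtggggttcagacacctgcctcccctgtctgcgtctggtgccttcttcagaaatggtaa
The ETS core stood 2 times each in the windows of Cd3e, Cd3d and Cd247 and 0 times in those of Cd3g, Cd8a and Trat1. Of all 32851 promoter windows, 35.4% held it on either strand. The E-box CANNTG was found in the windows of all 3 CD3 genes, 2 times in Cd3e, 1 time in Cd3d and 4 times in Cd3g, and in 72.3% of all windows. The TATAAA box was in none of these 3 and in 13.6% of all windows. No match of one motif overlapped a match of another in these 3 windows. The matches describe the letters and are not sites of binding measured here.

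The first comparison asked how far the mRNAs of the receptor complex separate the sorted T cells from the sorted B cells. For each of the 8 genes both T cell libraries lay above both B cell libraries, and group means differed between 12-fold for Cd247 and 28.8-fold for Trat1. Cd247 and Trat1 rose in T cells by the edgeR test and the other 6 genes did not pass it, 2 of 8, where 9.06% of the 13929 genes tested were higher in T cells and 9.4% lower. The median log2 difference of the 8 genes was 4.26, beside 0.0094 over all genes tested. In such bulk samples, fewer cells of a type and less RNA per cell cannot be told apart.

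Cd3e, the chain shared by both CD3 dimers, had 373 and 433 CPM in T cell RNA-seq libraries 1 and 4, against 3.81 and 35.7 CPM in B cell libraries 1 and 3. Cd3d, which pairs with it on one side of the receptor, had 610 and 628 CPM in T cells, against 3.92 and 68.5 CPM in B cells. Cd3g, of the other dimer, had 620 and 610 CPM in T cells, against 4.59 and 60.4 CPM in B cells. The T cell libraries of Cd3d and Cd3g were nearly equal, while the B cell libraries of all 3 genes differed several-fold, with library 3 the higher. Log2 differences were 4.35 ± 1.06 for Cd3e (± SE, n = 2 libraries per group, edgeR adjusted p = 0.0534), 4.10 ± 1.30 for Cd3d (adjusted p = 0.101) and 4.24 ± 1.20 for Cd3g (adjusted p = 0.0776).

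Cd247, the zeta chain with its repeated ITAMs, had 368 and 329 CPM in T cell RNA-seq, against 9.97 and 47.9 CPM in B cells (log2 difference 3.59 ± 0.77, edgeR adjusted p = 0.0396). Trat1, whose product TRIM is a transmembrane adaptor found with the T cell receptor, was much scarcer in counts, with 270 and 158 in T cells, against 1 and 13 in B cells. This made 27.4 and 16.7 CPM in T cells, against 0.112 and 1.42 CPM in B cells (4.81 ± 0.86, adjusted p = 0.0256). Among the 13929 genes Trat1 ranked 51 from the top by log2 difference and Cd247 ranked 377, the lowest of the 8.

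Cd4, the coreceptor for MHC class II, had 438 and 411 CPM in T cell RNA-seq, against 3.14 and 34.7 CPM in B cells (log2 difference 4.49 ± 1.12, edgeR adjusted p = 0.0571). Cd8a, the alpha chain of the class I coreceptor, had 286 and 456 CPM in T cells, against 0.448 and 39.7 CPM in B cells (4.20 ± 1.62, adjusted p = 0.157). Cd8b1, the beta chain, had 464 and 582 CPM in T cells, against 1.46 and 52.6 CPM in B cells (4.27 ± 1.5, adjusted p = 0.127). Both CD8 chains were higher in T cell library 4 than in library 1, whereas Cd4 was slightly lower there. As a ratio, Cd8a had the widest gap of the 8 between B cell libraries, with 4 counts in library 1 and 364 in library 3.

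How many of the 8 passed turned on the tool and on the libraries in the fit. With DESeq2 6 passed, where 3144 of all 13929 genes tested passed, against 2572 in the main fit. With all 8 libraries in a single fit 7 passed, where 2022 of 13227 genes did. A fit without B cell library 1 or 3 holds no spread between B cell libraries, so only log2 differences of the 8 genes are given for it. The log2 differences ran from 2.86 (Cd247) to 3.94 (Trat1) without B cell library 1, and from 5.12 (Cd247) to 9.65 (Cd8a) without B cell library 3. Cd8a moved most, with 3.21 and 9.65 in these fits.

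**Figure D1:**
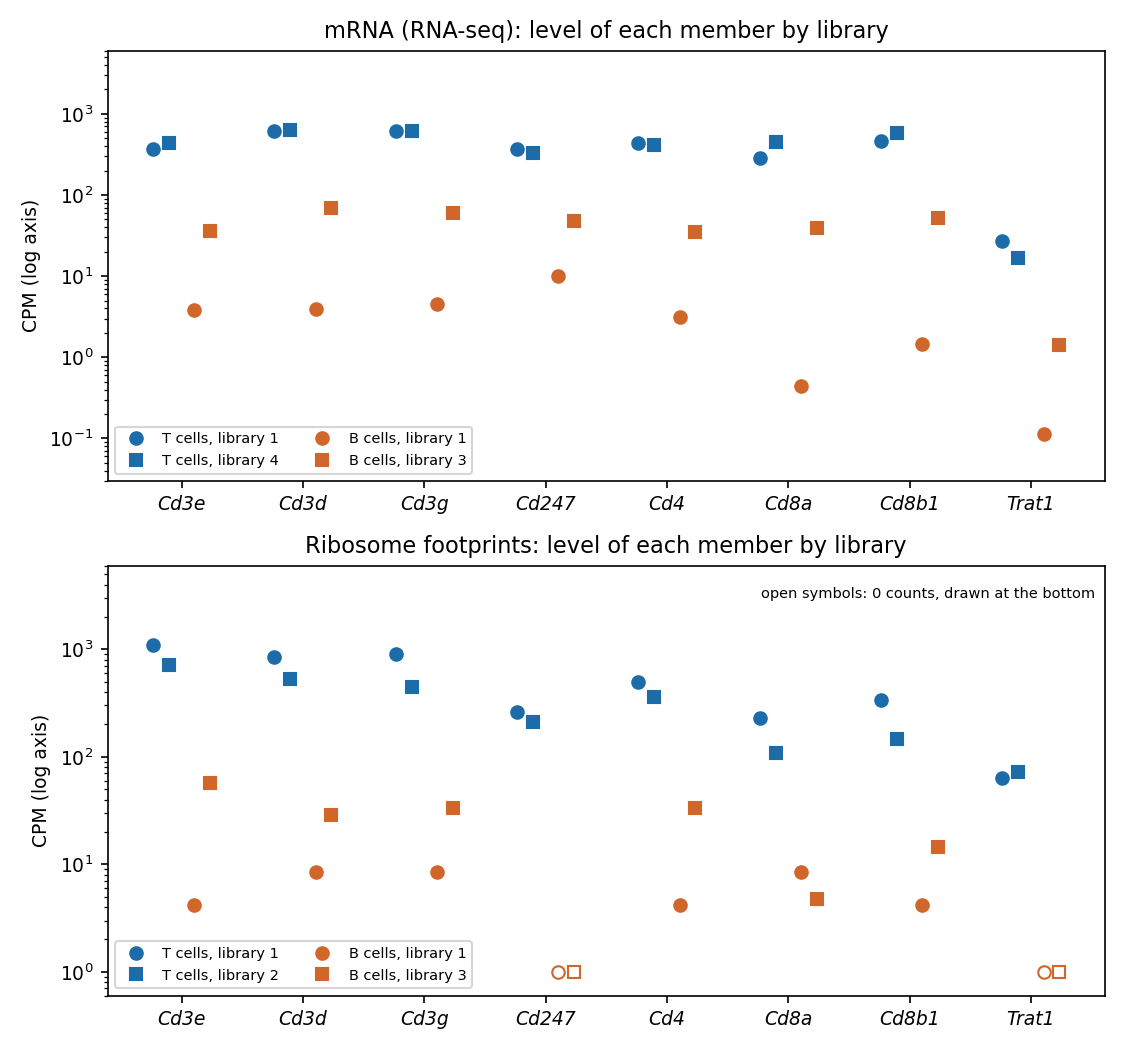
Level of each gene in every library, in CPM on a log axis, for mRNA (upper panel) and footprints (lower panel), with T cells in blue and B cells in orange. Each T cell symbol lies above each B cell symbol of the same gene, open symbols are 0 counts drawn at the bottom, and B cell RNA-seq library 3 lies above library 1 for all 8 genes.

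The second comparison asked the same of ribosome footprints. All 8 genes had more footprints in T cells by the edgeR test, where 4.8% of the 4771 genes tested were higher in T cells and 8.38% lower. Their median log2 difference was 4.99, or 4.84 with Cd247 and Trat1 at their lower bounds, beside -0.0158 over all genes tested. The T cell libraries again lay above the B cell libraries for every one of the 8. These genes had 0 to 12 counts in each B cell library and met the filter on low counts through their T cell libraries. As they were also chosen by name as T cell genes, their passing is no independent support for a difference.

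In footprints Cd3e had 1096 and 718 CPM in T cell libraries 1 and 2, against 4.22 and 57.5 CPM in B cell libraries 1 and 3, where these stood for 1 and 12 counts (log2 difference 4.92 ± 0.73, edgeR adjusted p = 0.000923). Cd3d had 849 and 529 CPM in T cells, against 8.45 and 28.7 CPM in B cells (5.24 ± 0.60, adjusted p = 0.000345). Cd3g had 911 and 449 CPM in T cells, against 8.45 and 33.5 CPM in B cells (5.06 ± 0.65, adjusted p = 0.000453). In all 3, T cell library 1 was the higher and B cell library 1 the lower of its group. Group means differed by 29.4-fold, 37.0-fold and 32.4-fold.

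Cd247 had 260 and 210 CPM in T cell footprints and 0 counts in both B cell libraries, so that it was at least 34.9-fold higher in T cells, taken against 3 counts over the B cell group (edgeR adjusted p = 0.000345). Trat1 had 63.6 and 72.5 CPM in T cells, from 44 and 10 counts, and 0 counts in both B cell libraries, or at least 10.1-fold higher (adjusted p = 0.0025). These were the only members of the 8 without a B cell footprint.

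Cd4 had 499 and 362 CPM in T cell footprints, against 4.22 and 33.5 CPM in B cells (log2 difference 4.56 ± 0.63, edgeR adjusted p = 0.000607). Cd8a had 228 and 109 CPM in T cells, against 8.45 and 4.79 CPM in B cells (4.65 ± 0.69, adjusted p = 0.000923). Cd8b1 had 335 and 145 CPM in T cells, against 4.22 and 14.4 CPM in B cells (4.75 ± 0.68, adjusted p = 0.000783). The CD8 chains rested on few counts, 15 and 20 in T cell library 2 and 1 to 3 in the B cell libraries. In a single fit of all 8 libraries, into which the spread of the RNA-seq libraries enters, 1 of the 8 passed in footprints. That gene was Cd247, which had 0 counts in both B cell footprint libraries. Without T cell footprint library 1, Trat1 fell under the filter on low counts and the other 7 passed.

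**Figure D2:**
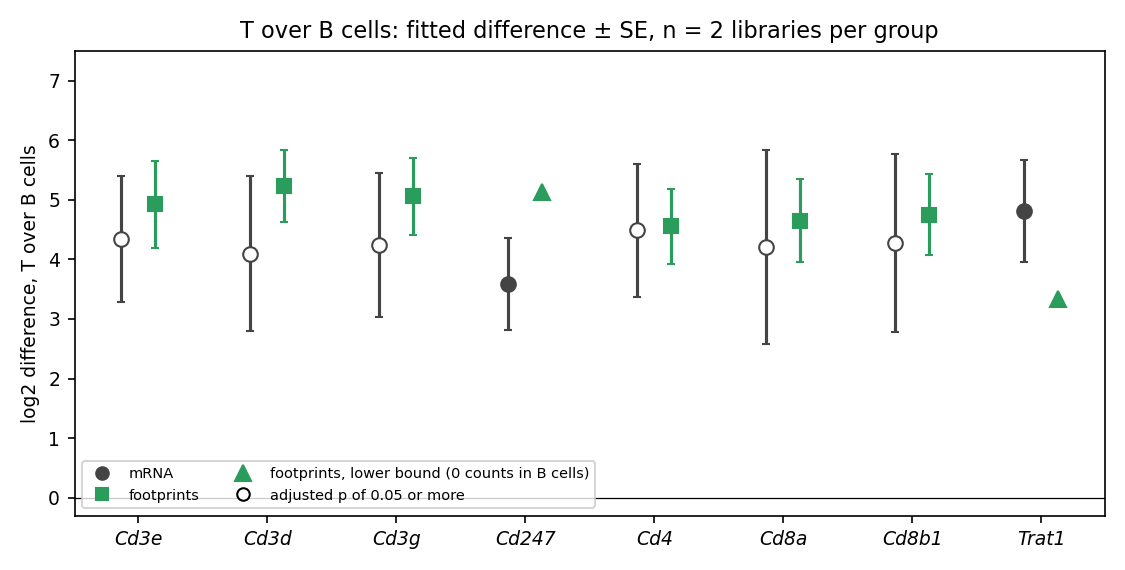
Fitted log2 difference of T over B cells (± SE, n = 2 libraries per group) for mRNA (circles) and footprints (squares). Open symbols did not pass the test, and triangles are lower bounds for Cd247 and Trat1, at 34.9-fold and 10.1-fold, which had no footprint count in B cells. The mRNA errors are wider than the footprint errors for the 6 genes with an estimate in both.

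The level of each gene in a B cell library, as a percent of its mean level in the T cell libraries of the same assay, is called carry-over here. The word names the measure and not a source. Intervals are exact 95% Poisson intervals of the count in that library and cover counting error only. In RNA-seq the median over the 8 genes was 0.686% in B cell library 1 and 9.94% in library 3. In footprints it was 1.1% and 4.55%. For comparison, the median over the 4 receptor constant chain genes measured was 0.572% and 11.3% in RNA-seq and 1.28% and 4.61% in footprints.

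In B cell RNA-seq library 3 the 3 CD3 genes and the coreceptors lay close together. Carry-over was 8.86% for Cd3e (7.92 to 9.87), 11.1% for Cd3d (10.2 to 12) and 9.83% for Cd3g (9.03 to 10.7). It was 8.17% for Cd4 (7.29 to 9.12), 10.7% for Cd8a (9.64 to 11.9) and 10.1% for Cd8b1 (9.18 to 11). Trat1 stood at 6.44% (3.43 to 11). CD4 and CD8 transcripts were thus both present there. The intervals of both CD8 chains lay above that of Cd4, but they leave out the spread of the T cell mean. That mean came from 286 and 456 CPM for Cd8a and from 438 and 411 CPM for Cd4, so no difference between the coreceptors is read from it.

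B cell RNA-seq library 1 looked different. The CD3 genes stood at 0.946% (Cd3e, 0.655 to 1.32), 0.633% (Cd3d, 0.441 to 0.881) and 0.747% (Cd3g, 0.536 to 1.01), and Cd4 at 0.739% (0.491 to 1.07). Both CD8 chains were lower, Cd8a at 0.121% (0.0329 to 0.310) and Cd8b1 at 0.279% (0.148 to 0.476), and neither interval reached that of Cd4. Cd247 was the highest, at 2.86% (2.30 to 3.52), and it was also the highest in library 3, at 13.8% (12.5 to 15.1). In both libraries its interval lay above those of the CD3 and coreceptor genes, again without the spread of the T cell mean.

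Pou2f1, the transcription factor gene that overlaps Cd247, had 41.4 and 50.1 CPM in T cell RNA-seq and 39.8 and 43.0 CPM in B cell RNA-seq. In footprints it had 26.0 and 21.7 CPM in T cells and 63.4 and 57.5 CPM in B cells, where Cd247 had none. Whether reads of Pou2f1 enter the count of Cd247 was not tested. In B cell footprints the 0 counts of Cd247 allow a carry-over of up to 5.39% (library 1) and 6.11% (library 3). The limit in library 1 is above its RNA-seq percent there, and the limit in library 3 is below it. For Trat1 the limits are 18.6% and 21.1%, above its RNA-seq percents.

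Carry-over in footprints was imprecise, from 0 to 12 counts a gene. In B cell footprint library 3 Cd3e stood at 6.34% (3.28 to 11.1), Cd3d at 4.17% (1.53 to 9.08), Cd3g at 4.93% (1.98 to 10.2) and Cd4 at 7.79% (3.13 to 16.0). In library 1 the same genes stood between 0.466% and 1.24%, from 1 or 2 counts each. Cd8a had 2 counts in library 1 and 1 in library 3, so that the order of the libraries seen in its mRNA was not detectable at this depth.

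**Figure D3:**
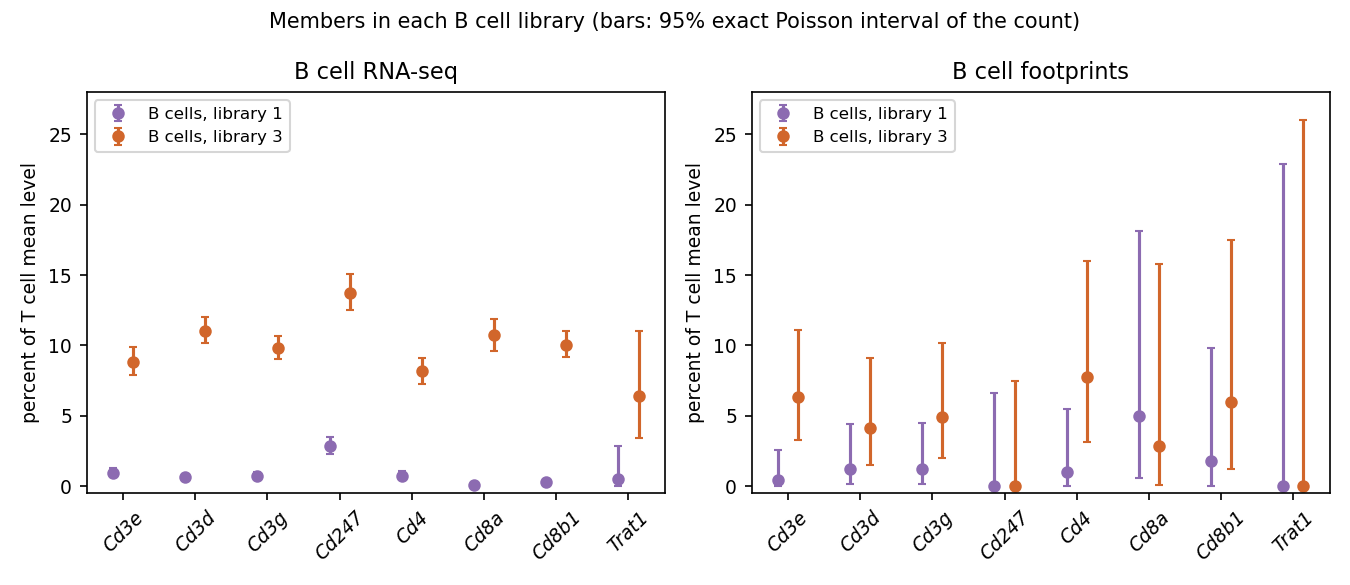
Level of each gene in each B cell library as a percent of its T cell mean, for RNA-seq (left) and footprints (right), with exact 95% Poisson intervals of the count. In RNA-seq library 3 lies at 6.44% to 13.8% and library 1 at 0.121% to 2.86%, with Cd247 highest in both. For a count of 0 the bar is the upper end of the exact interval, which is wider than the limit of 3 counts given in the text.

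Markers of other cells were summed in the same libraries. The 12 natural killer markers summed to 537 and 744 CPM in T cell RNA-seq, against 69.5 and 174 CPM in B cell RNA-seq libraries 1 and 3, with none at 0. In footprints they summed to 1010 and 1250 CPM in T cells, against 135 and 862 CPM in B cells, with 1 and 2 markers at 0 in T cells and 5 and 1 in B cells. Those at 0 in B cell footprint library 1 were Ncr1, Klrb1c, Klrc1, Eomes and Klre1. The median carry-over of natural killer markers was 6.4% and 27.8% in B cell RNA-seq and 7.89% and 64.7% in footprints, above that of the 8 genes in each library. Of these markers 4 of 12 were higher in T cells in RNA-seq and 0 of 6 in footprints by the edgeR test, with Klrc1 at 3.18 ± 0.60 in RNA-seq (adjusted p = 0.0291). Over all genes tested, 9.06% were higher and 9.4% lower in T cells in RNA-seq, and 4.8% and 8.38% in footprints. The part of natural killer markers in the result was not tested.

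The 12 dendritic cell markers summed to 119 and 148 CPM in T cell RNA-seq, against 767 and 690 CPM in B cell RNA-seq, mostly from Wdfy4 and Cst3. Wdfy4 alone had 562.7 and 468.5 CPM in B cell RNA-seq, against 7.51 and 17.2 CPM in T cell RNA-seq. Between B cell RNA-seq libraries 1 and 3, Itgax went from 2.02 to 9.49 CPM and Siglech from 8.96 to 19.3 CPM. Cd209a, Clec10a, Batf3, Flt3 and Clec9a were also higher in library 3, whereas Wdfy4, Cst3, Xcr1, Zbtb46 and Clec4a4 were lower. Xcr1 and Clec9a, which mark the dendritic cells that carry CD8 alpha, had 12 and 6 counts in B cell RNA-seq library 1 and 7 and 12 in library 3. In footprints 3 and 9 of the 12 were at 0 in T cells and 5 and 3 in B cells, where Xcr1 was at 0 in both libraries. By the edgeR test 2 of 8 were lower in T cells in RNA-seq and 1 of 3 in footprints, beside the shares of all genes given above. The 12 macrophage and neutrophil markers summed to 84.3 and 604 CPM in T cell RNA-seq, against 86.1 and 294 CPM in B cell RNA-seq libraries 1 and 3, with 1 of 12 at 0 in each of these libraries other than B cell library 1. None of 11 passed in RNA-seq and 1 of 6 was lower in T cells in footprints. The 6 measured markers of gamma delta and innate-like T cells summed to 66.7 and 63.1 CPM in T cells, against 3.02 and 6.98 CPM in B cells, where 4 and 1 of them were at 0, and 2 of the 4 tested were higher in T cells in RNA-seq. The part of these cells was not tested.

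Within a library, the ratio of counts of a pair of genes does not depend on library size. It still holds the ratio of their lengths, which is shared by libraries of an assay but not by both assays, since footprints lie in coding sequence and RNA-seq reads also in untranslated regions. It was compared across libraries as a description, with exact 95% intervals of the counts. Cd8a stood to Cd4 as 0.652 (0.621 to 0.684) in T cell RNA-seq library 1 and 1.11 (1.06 to 1.16) in library 4. In B cell RNA-seq the same ratio was 0.143 (0.0364 to 0.408) in library 1 and 1.14 (0.982 to 1.33) in library 3. B cell library 3 therefore held Cd8a and Cd4 in the proportion of T cell library 4 within counting error. Other pairs, given below with the CD3 genes, did not all match in this way. B cell library 1 held less Cd8a for its Cd4 than either T cell library.

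In T cell footprints Cd8a stood to Cd4 as 0.458 (0.377 to 0.554) in library 1 and 0.3 (0.156 to 0.543) in library 2, below both T cell RNA-seq libraries. Cd8b1 to Cd4 behaved alike, at 0.672 and 0.4 in footprints against 1.06 and 1.41 in RNA-seq of T cells. The ratio of the CD8 chains to each other, Cd8b1 over Cd8a, was 1.47 and 1.33 in T cell footprints and 1.63 and 1.28 in T cell RNA-seq, so that the assays overlapped. Both chains of CD8 thus had lower counts relative to Cd4 in T cell footprints than in T cell RNA-seq, which was not tested. Untranslated regions, which add to RNA-seq counts alone, also enter this comparison. The libraries of the assays share only the number 1. A different share of CD8 cells in each library cannot be told apart from fewer footprints per mRNA.

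Among the CD3 chains, Cd3d stood to Cd3e as 0.774 and 0.737 in T cell footprints, against 1.64 and 1.45 in T cell RNA-seq. Cd3g to Cd3e was 0.831 and 0.626 in footprints, against 1.66 and 1.41 in RNA-seq. Cd3g to Cd3d was 1.07 and 0.849 in footprints, against 1.02 and 0.971 in RNA-seq. The values of Cd3g to Cd3d overlapped between the assays, and those of both genes to Cd3e did not; these differences were not tested. Cd247 to Cd3e was 0.237 and 0.293 in footprints, against 0.986 and 0.76 in RNA-seq, without overlap. In B cell RNA-seq library 3 Cd3d to Cd3e was 1.92 (1.68 to 2.2), against 1.45 (1.39 to 1.51) in T cell library 4. Likewise Cd3g to Cd3e was 1.69 (1.48 to 1.95) against 1.41 (1.35 to 1.47). Cd247 to Cd3e was 1.34 (1.16 to 1.55) against 0.76 (0.725 to 0.796). For Cd3g to Cd3d, Cd8b1 to Cd4, Cd8b1 to Cd8a and Trat1 to Cd3e the intervals of these libraries overlapped. The differences were not tested.

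**Figure D4:**
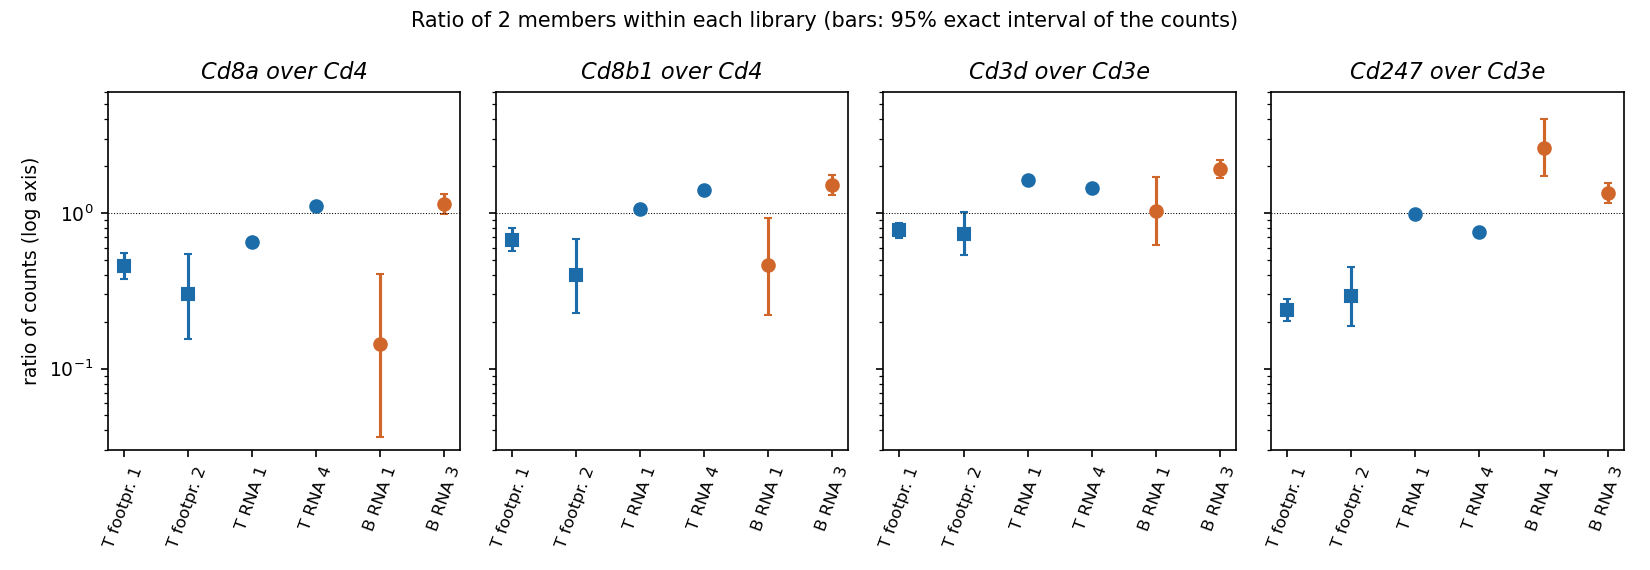
Ratio of counts of a pair of genes within each T cell footprint library (blue squares), T cell RNA-seq library (blue circles) and B cell RNA-seq library (orange circles), on a log axis with exact 95% intervals. Cd8a over Cd4 is 1.11 in T cell RNA-seq library 4 and 1.14 in B cell RNA-seq library 3. In these libraries Cd3d over Cd3e is 1.45 and 1.92, and Cd247 over Cd3e is 0.76 and 1.34. Cd3d over Cd3e is below 1 in T cell footprints and above 1 in T cell RNA-seq.

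The third comparison set footprints against mRNA within T cells, a relative measure of footprints per mRNA after scaling of the libraries. Untranslated regions add to mRNA counts and not to footprints, and no correction for them was made. None of the 8 genes passed in the model of all 8 libraries, in which 8.91% of 13227 genes were higher and 18.6% lower in footprints (edgeR; 1 of the 8, Trat1, at an unadjusted p of 0.0391; 0 of 8 with DESeq2). The median log2 ratio was 0.0244 over the 8 genes and -0.537 over all genes tested. The latter includes genes with few footprint counts, as 13227 genes were tested here and 4771 in footprints alone. In the model of all 8 libraries the errors of the 8 genes include the spread between the B cell libraries. A fit of the 4 T cell libraries alone, chosen after seeing the data, is therefore given beside it.

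By group means Trat1 had the highest ratio of the 8, 3.09 in CPM, with 68.0 ± 6.28 CPM in T cell footprints and 22.0 ± 7.59 CPM in T cell RNA-seq (mean ± SD, n = 2 libraries each). Its log2 ratio was 1.52 ± 0.61 in the model of all 8 libraries (edgeR adjusted p = 0.102). In the T cell libraries alone it was 1.56 ± 0.35 (adjusted p = 0.0129). Cd3e followed at 2.25, with 907 ± 267 CPM in footprints and 403 ± 42.3 CPM in RNA-seq. Over the combinations of T cell libraries the ratio ran from 2.32 to 4.35 for Trat1 and from 1.66 to 2.94 for Cd3e, and in the libraries numbered 1 Cd3e was the higher (2.94, against 2.32 for Trat1). Its log2 ratio was 1.10 ± 0.86 (adjusted p = 0.364), and 1.14 ± 0.33 in T cells alone (adjusted p = 0.0296). In T cells alone these 2 of the 8 passed, where 11.3% of 12187 genes were higher and 21.9% lower.

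Cd3d, Cd3g and Cd4 had ratios near 1, at 1.11, 1.11 and 1.01 of footprint over mRNA means in CPM. Their log2 ratios were 0.09 ± 0.93, 0.10 ± 0.89 and -0.04 ± 0.83 in the model of all 8 libraries. The median over all genes tested was lower there, at -0.537. Cd4 had 430 ± 96.4 CPM in footprints and 425 ± 19.0 CPM in RNA-seq. The sign of its log2 ratio changed with the scaling, and the estimate was 0.00085 ± 0.29 in T cells alone.

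The zeta chain and the CD8 chains had the lowest ratios. Cd247 had 235 ± 35.4 CPM in footprints and 348 ± 27.5 CPM in RNA-seq, a log2 ratio of -0.63 ± 0.62. Cd8a had 169 ± 84.6 CPM in footprints and 371 ± 120 CPM in RNA-seq, a log2 ratio of -1.12 ± 1.18, and Cd8b1 had 240 ± 135 and 523 ± 83.0 CPM, a log2 ratio of -1.12 ± 1.09. In T cells alone the CD8 chains stood at -1.07 ± 0.40 each (adjusted p = 0.0709 and 0.0692) and Cd247 at -0.58 ± 0.27 (adjusted p = 0.127), none past the threshold. Cd247 was close to the median of all genes tested in T cells alone, -0.438, which also includes genes with few footprint counts.

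**Figure D5:**
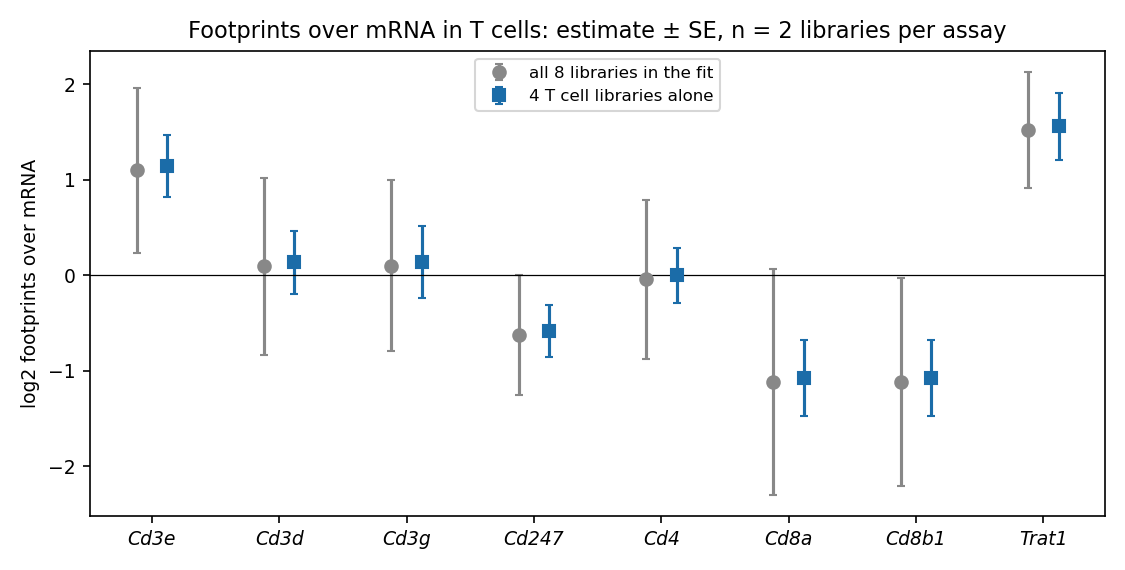
Log2 ratio of footprints over mRNA in T cells (± SE, n = 2 libraries per assay) from the model of all 8 libraries (grey) and from the 4 T cell libraries alone (blue). Estimates are alike in both, between -1.12 for both CD8 chains and 1.56 for Trat1, and errors are smaller in the T cell libraries alone.

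The difference of this ratio between T and B cells was tested as an interaction of assay and cell type. None of the 8 genes passed, and neither did any of the 13227 genes, or 0% (edgeR; 748 genes at an unadjusted p below 0.05; 5 genes with DESeq2, 0 of them among the 8). Estimates for the CD3 and coreceptor genes ran from 0.10 ± 1.57 for Cd4 to 1.18 ± 1.70 for Cd3d, with errors larger than the estimates. No size is given for Cd247 and Trat1, whose 0 counts in B cell footprints leave the fitted value without meaning (adjusted p = 0.875 and 0.943). Without B cell RNA-seq library 3 the estimates turned negative for all 6 others, between -1.77 and -4.86.

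The genes around the receptor complex were taken from lists. The shares of all genes tested were 9.06% higher and 9.4% lower in T cells in RNA-seq, and 4.8% and 8.38% in footprints. Of 30 genes of proximal receptor signalling, 14 were higher and 2 lower in T cells in RNA-seq, with a median log2 difference of 2.87. Ptpn22, a phosphatase that restrains signalling, stood at 1.62 ± 0.14 (edgeR adjusted p = 0.00551) and Plcg1, a phospholipase downstream of LAT, at 2.65 ± 0.26. Csk, the kinase that inhibits Lck, was lower in T cells (-1.01 ± 0.19, adjusted p = 0.0294). In footprints 21 of 29 were higher and 0 lower, with a median of 2.87. Lat, the adaptor phosphorylated by ZAP-70, had 522 and 471 CPM in T cells, against 0 and 4.79 CPM in B cells. Cd6 had 337 and 326 CPM in T cells and 0 counts in both B cell libraries.

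In footprints over mRNA in T cells, 7 of these 30 were higher and 2 lower in the model of all 8 libraries. Over all 13227 genes tested there, 8.91% were higher and 18.6% lower. Ptprc, the phosphatase CD45 that activates Lck, stood at 2.02 ± 0.34 (edgeR adjusted p = 0.00459). Csk stood at -1.64 ± 0.41 and Plcg1 at -1.26 ± 0.39 (adjusted p = 0.0199 and 0.0438).

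Of the receptor constant chain genes 4 of 7 had an ID. Trdc, of the delta chain, rose in T cells in RNA-seq (3.88 ± 0.28, edgeR adjusted p = 0.00374), the only one of the 4, while Trbc2 stood at 3.97 ± 1.36 (adjusted p = 0.121). All 3 that were tested had more footprints in T cells, among them Trac and Trbc2 (5.69 ± 0.80, adjusted p = 0.000699). None of the 4 passed in footprints over mRNA. Only Trac, at 0.07 ± 1.02, stood near Cd3d and Cd3g, while Trbc2 (-2.27 ± 1.06), Trbc1 (-1.62 ± 1.07) and Trdc (-1.28 ± 0.48) were lower. Of 10 T cell transcription factors 5 were higher in RNA-seq, among them Satb1 and Tox (3.65 ± 0.64), and 6 of 8 in footprints, among them Tcf7 (4.91 ± 0.57) and Lef1 (4.36 ± 0.52). In footprints over mRNA Satb1 was higher (1.37 ± 0.42) and Zbtb7b (-3.11 ± 0.37) and Id3 were lower. The lower ratios rested on few footprints in T cell libraries 1 and 2, with 10 and 1 counts for Zbtb7b and 4 and 1 for Id3.

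Likeness of profile was measured by the root mean square difference of log2 CPM, each gene centred on its mean over the 8 libraries, from the mean profile of the 8 genes, among 13227 genes. Cd3d (0.303) and Cd3g (0.36) ranked 1 and 2, and Cd4 (0.534) and Cd8b1 (0.611) ranked 7 and 9. Each of the 8 is part of the mean profile it is compared with, which draws its rank towards the top. Cd247 (1.87) ranked 369 and was the least like the rest of the 8. Leaving out receptor or immunoglobulin gene segments, which held 5 of the first 15 ranks, the nearest genes outside the set were Trac (0.451), Tcf7 (0.462), Nsg2 (0.466), Camk4 (0.606), Tesc (0.655) and Cd5 (0.671).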

How the data were processed

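The deposited values are raw counts per Ensembl gene ID, in 8 tables of 1 library each, whole numbers with unequal library sums. Per the submitters' processing notes, FastQC, Bowtie2, TopHat and HTSeq were used with the mm10 build; their versions, the strand setting and the annotation release are not stated. No row is named for unassigned reads, and 0 count columns were left unused.

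Symbols came from a names table (53620 of 53801 IDs matched) and positions and promoters from RefSeq GRCm38.p6. Counts were tested with edgeR 4.0.16 in R 4.3.3 (quasi-likelihood, TMM, filterByExpr at a minimum count of 10 and total of 15, Benjamini-Hochberg over all genes tested, threshold 0.05). Alternatives were DESeq2 1.42.0, other scalings and filters, blocking on the library number, and omitting single libraries. Tests were tested on simulated data with 200 changed genes. T over B cells used the 4 libraries of an assay (2 residual degrees of freedom), and ratios used all 8 (4). Replicate libraries were not copies of each other (chi-square per degree of freedom 4.43 to 29.4). Floors are 3 counts. All 8 genes are reported, plus, per list, those of smallest p (at most 2 moving with the list and 1 against it), and the 6 genes of most similar profile other than gene segments and predicted, clone-named or unnamed genes. Xcr1, Clec9a, the other dendritic cell markers compared between B cell libraries, the markers named at 0 and Pou2f1 were added after values were seen. The 8 genes and the lists were chosen with earlier results of these data known.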

Additional observations from a re-analysis of the deposited data

How the results depend on the processing

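In RNA-seq 2572 of all 13929 genes tested passed, 3144 with DESeq2 and 3755 with a term for libraries numbered 1. Without a filter beyond 1 count 1966 of 24125 passed, and with all 8 libraries in 1 fit 2022 of 13227. Without small nuclear, small nucleolar and immunoglobulin genes 2853 of 13706 passed. With 2 libraries per group, the count of the 8 genes passing in RNA-seq was 2. It was 6 with DESeq2 or with the term for libraries numbered 1, and 1 without a filter beyond 1 count. It was 4 without these abundant classes, and 7 with all 8 libraries in 1 fit. In footprints it was 8, and 1 with all 8 libraries in 1 fit, or 7 to 8 leaving out 1 library, where a lone sample is assumed to vary like the other group. For footprints over mRNA in T cells it was 0, and 1 without a filter (Trat1), 2 in T cells alone (Cd3e and Trat1), and 0 to 1 leaving out 1 library. T and B groups shared only the number 1, so that between them the term for libraries numbered 1 was the only block that could be fitted. Across assays B cells shared 1 and 3 and T cells only 1, and deviations of same-numbered libraries correlated at -0.017 and -0.0821 over 13227 genes. At the low depth of the footprints such a correlation cannot decide whether they are pairs. The labels do not say so either, and the numbers were not taken as pairs. With the replicate block 1 of the 8 passed for footprints over mRNA (Cd3e, 1.55, edgeR adjusted p = 0.0372), 1684 genes in place of 3642, and 87 genes in place of 0 for the ratio difference.

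The log2 ratio of Cd4 in T cells, -0.04, turned positive under DESeq2 (0.074), RLE (0.09), upper-quartile scaling (0.079), the CPM filter (0.032), without abundant classes (0.021), the replicate block (0.18), TMM within each assay (0.078) and T cells alone (0.00085). It ran from -0.36 to 0.31 leaving out 1 library, and those of Cd3d and Cd3g from -0.36 to 0.53 and -0.59 to 0.65. The ratio difference between cell types ran from -1.77 to 3.46 for Cd3e, -2.02 to 2.33 for Cd3d, -1.96 to 2.18 for Cd3g, -2.48 to 2.25 for Cd4, -4.86 to 1.52 for Cd8a and -3.64 to 1.69 for Cd8b1. Where the causes were not shown by the construction of the alternative, they were not tested. No T over B difference of the 8 genes changed direction in 96 refitted values in RNA-seq and 95 in footprints. The 4 medians of carry-over moved by less than the spread between the B cell libraries, a weak check because that spread is wide. Leaving out 1 T cell library, they ran in RNA-seq from 0.679% to 0.713% (library 1) and 8.88% to 10.5% (library 3). In footprints they ran from 0.887% to 1.38% (library 1) and 3.53% to 6.45% (library 3). Over all genes, counts passing were 1455 and 1626 without B cell RNA-seq library 1 and 3, and 415 without T cell footprint library 1. The 8 genes had 0 to 12 footprint counts each in a B cell library, which limits the precision of their carry-over there.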
